A study of Mus musculus with 21 samples.

Results

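The ribosomal protein genes of mouse embryonic dermis were taken by symbol from the single-cell table. A gene was a member if its symbol begins with Rpl or Rps followed by a digit, or is Rplp0, Rplp1, Rplp2 or Rpsa, with the Rps6k kinases and the rows marked as pseudogenes left out. The rule found 86 of 20284 genes, of which 52 carry a large subunit symbol (Rpl and Rplp) and 34 a small subunit symbol (Rps and Rpsa). It also took in Rps19bp1, named for binding an Rps19 protein, and Rpl7l1, which are not subunits themselves. Proteins of the ribosome whose genes carry other names, such as Fau and Gnb2l1 (now Rack1), are outside the rule.

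A ribosome is built from ribosomal RNA and a single copy of most ribosomal proteins, with more copies in the acidic stalk, so the proteins are needed in matched amounts. Most of their messenger RNAs begin with a cytosine followed by a run of pyrimidines, the terminal oligopyrimidine (TOP) motif, through which growth signals acting by mTOR control their translation. The genes are transcribed at high rates in growing cells. In mouse skin, mutations in Rps19 and Rps20 were found from dark skin.

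The cells came from the back skin of CD1 mouse embryos at embryonic day 15, when fibroblasts of the upper dermis gather into dermal condensates under the hair follicle placodes. Live cells were sorted by flow cytometry into plates and sequenced in 9 single-cell libraries by SORT-seq, which counts RNA molecules near their 3′ end by unique molecular identifiers (UMIs). The wells carry the names Fb (fibroblast, 1371 wells), DC0 (149), DC1 (152) and DC2 (151), and each plate has 16 more named for spike-in RNA. Another 12 bulk RNA samples of the series were not analysed here. All groups share the strain, the age and the tissue, and no transgene, treatment or sort marker is named in the labels of these libraries, though the table has a row for eGFP. The labels do not define DC0, the number of embryos per library or whether the names came from the sort or from clusters of cells. If they came from clusters, the members were among the genes clustered, and the tests below then compare groups chosen partly on expression.

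The library, a plate, was the unit of replication. P-values therefore set a difference between populations against the spread left between sums of different plates, which may be technical. In the comparisons of single names, that spread was estimated from all 4 populations together. Libraries 1 to 7 hold Fb wells with 2 to 8 wells of each condensate name, library 8 holds only DC0 and DC2 wells, and library 9 only DC1 wells, each in large numbers. Library totals ran from 1436924 to 6414137 UMIs. The median well held 18509 UMIs in Fb, 12773 in DC0, 10469 in DC1 and 8333 in DC2. The smallest sum was DC2 of library 1, with 2855 UMIs from 4 wells. In it a gene without a UMI could still stand at up to 1051 CPM (a gene's UMIs divided by all UMIs of the sum, on the usual scale), from the 3 counts that a count of 0 allows. Intervals and floors here cover counting error only. No 2 wells held identical values. Of the markers listed for the names, 8 of 8 fibroblast genes were lower and 10 of 10 condensate genes higher in condensate than in Fb sums. The 8 epithelial markers summed to 45.9 to 490 CPM in Fb, 0 to 393 in DC0 and 28.0 to 931 in DC2 sums, with Trp63 at 0 in DC0. Summed levels of 6 endothelial markers reached 24.0 CPM in Fb, 96.6 in DC0 and 350 in DC2, where 350 CPM is a single UMI of library 1. Muscle, immune, melanocyte, Schwann and erythroid markers likewise stayed under 400 CPM in every sum. The 6 pericyte markers summed to 167 to 221 CPM in Fb, 74.9 to 267 in DC0, 38.9 to 248 in DC1 and 0 to 437 in DC2, whose median of 236 was above the medians of the other names, with Rgs5 at 0 in DC0 and DC1. Of 5 tested in condensate against Fb, 1 rose and 3 fell (median -2.13), and none could be tested between stages. Their part in the results was not tested. Library 7 was identified by its title, while its description carries another plate number.

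The TOP motif is shown first because it is the sequence feature that ribosomal protein genes are known to share. RefSeq start sites on GRCm38.p6 (the build called mm10 in the submitters' processing notes) were matched by symbol for 65 of the 86 members, with 77 annotated starts. Of these starts, 13 (16.9%) had C as the first transcribed base followed by 4 C or T bases, on the strand of the gene, against 2.51% of all 32851 starts. Below are 15 bases before the start and the first 15 transcribed bases of the 5 such members called in DC2 against DC0, and of Rps6. Capitals mark the unbroken pyrimidine run from the first transcribed base.
Rpl35: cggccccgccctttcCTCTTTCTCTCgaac
Rpl38: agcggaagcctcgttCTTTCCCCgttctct
Rpl28: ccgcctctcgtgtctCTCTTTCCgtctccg
Rpl14: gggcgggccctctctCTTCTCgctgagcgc
Rps18: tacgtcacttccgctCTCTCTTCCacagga
Rps6: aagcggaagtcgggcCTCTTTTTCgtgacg
These windows lie at chr2:39005117-39005146 on the minus strand (Rpl35), chr11:114668565-114668594 plus (Rpl38), chr7:4792950-4792979 plus (Rpl28), chr9:120571502-120571531 plus (Rpl14), chr17:33955651-33955680 minus (Rps18) and chr4:86857353-86857382 minus (Rps6). Each covers the end of the promoter and the start of the first exon. Runs were between 6 bases (Rpl14) and 11 bases (Rpl35) long in these 6 genes. An annotated start can miss the true start by a few bases, so a start outside this count is not shown to lack the motif.

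A second set of sequences shows how close the paralogs are. Rps27 and Rps27l both encode proteins of the small subunit from 252 coding bases, of which 60 differ. Their first 90 coding bases are printed with the 24 differing bases in capitals.
Rps27: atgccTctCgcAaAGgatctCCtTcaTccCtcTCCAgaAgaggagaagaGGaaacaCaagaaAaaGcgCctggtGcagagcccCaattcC
Rps27l: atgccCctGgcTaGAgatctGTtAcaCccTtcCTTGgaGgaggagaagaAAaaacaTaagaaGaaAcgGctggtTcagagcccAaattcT

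The members made up 9.98% ± 0.754 of UMIs in Fb sums (SD, n = 7 libraries), 11.9% ± 1.95 in DC0 (n = 8), 10.4% ± 1.44 in DC1 (n = 8) and 8.47% ± 1.62 in DC2 (n = 8). The lowest, median and highest libraries stood at 9.09%, 9.88% and 11.4% in Fb, at 9.28%, 12% and 14.2% in DC0, at 8.54%, 10.1% and 13.0% in DC1, and at 5.64%, 9.15% and 9.99% in DC2. The ranges of neighbouring groups overlapped, while the order within a plate was more regular. DC0 stood above Fb in 6 of 7 libraries, by 1.57 percentage points on average (SD 1.48), with library 7 the exception at 9.28% against 9.39%. DC1 stood below DC0 in 6 of 7 libraries, again except library 7. Without library 7 the mean differences were 1.85 points for DC0 minus Fb and -1.81 for DC1 minus DC0. DC2 stood below Fb in 7 of 7 libraries, with a mean difference of -1.69 points (SD 1.37), below DC1 in 7 of 7 and below DC0 in 8 of 8, with a mean difference of -3.42 points (SD 2.29). The lowest share, 5.64% in DC2 of library 1, has a 95% Wilson interval of 4.85% to 6.55%. That sum holds 2855 UMIs from 4 wells, while the 16 spike-in wells of the same plate hold 6555 UMIs with a member share of 7.40%, and the part of such background in it was not tested. Without library 1 the mean difference was -2.71 points for DC2 minus DC0 and -1.27 for DC2 minus Fb. In library 8, the only plate with many wells of both names, DC0 stood at 14.2% (14.2% to 14.3%) and DC2 at 9.74% (9.69% to 9.79%). No p is given for a sum over chosen genes.

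**Figure D1:**
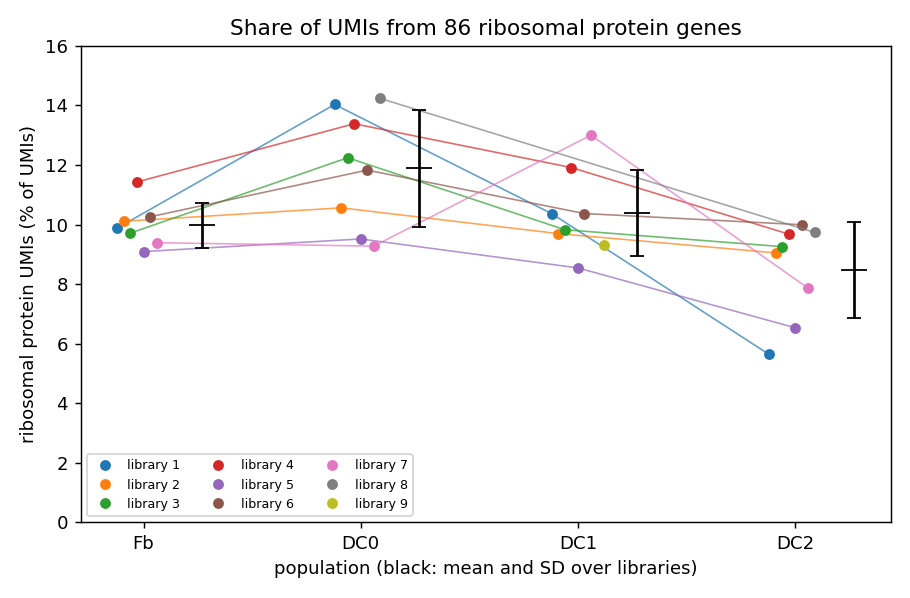
Percent of UMIs from the 86 ribosomal protein genes (vertical axis) in each population sum (horizontal axis), a colour and line per library, black bars for the mean and SD over libraries. DC2 is the lowest point of its line in every library that has DC0 and DC2, and the DC0 mean of 11.9% is the highest of the 4.

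The subunits were also summed separately. Large subunit genes made up 6.65% of UMIs in DC0 and 4.84% in DC2, and were lower in DC2 in 8 of 8 libraries. Small subunit genes made up 5.23% in DC0 and 3.62% in DC2, and were lower in 8 of 8. Against Fb and against DC1, DC2 was lower in 6 of 7 libraries each for large subunit genes and in 7 of 7 each for small subunit genes. Measured instead against the spike-in RNA added to each well, a scale free of the cell's other RNA, members gave 6.01 UMIs per spike-in UMI in Fb, 6.23 in DC0, 4.99 in DC1 and 3.38 in DC2. These means are taken over plates that are not all the same. Over the 7 libraries with both names, DC0 averaged 5.72 and Fb 6.01. On that scale DC2 was below Fb in 7 of 7 libraries and below DC0 in 7 of 8, with library 2 the other way, while DC0 was above Fb in only 4 of 7. Total UMIs per spike-in UMI averaged 61.3 in Fb, 53.7 in DC0, 49 in DC1 and 42.2 in DC2, over plates that are not all the same. Within plates they were lower in DC2 than in Fb in 6 of 7 libraries and than in DC0 in 5 of 8, and lower in DC1 than in DC0 in 4 of 7. A lower total of RNA molecules per cell and a loss of molecules in handling cannot be told apart on this scale.

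The S phase gene list took 0.402% of UMIs in Fb, 0.329% in DC0, 0.278% in DC1 and 0.156% in DC2. The G2 and M phase list took, in the same order, 0.705%, 0.451%, 0.493% and 0.298%. The mitochondrial share was 6.27% in Fb, 7.40% in DC0 and 6.62% in DC2. Over the 1155 Fb wells of at least 3000 UMIs, the Spearman correlation across wells of the member share with the well's total lay between -0.59 and -0.13 in the 7 libraries, with the S phase share between 0.03 and 0.24, and with the G2 and M phase share between -0.31 and -0.06. These describe wells that share plate, depth and denominators, and carry no p. Gene by gene, 8 of 11 S phase genes and 2 of 21 G2 and M phase genes fell in DC2 against DC0, and 0 rose, where 9.18% of all tested genes fell and 8.41% rose. The G2 and M phase count is near that background. The part of the cell cycle in the differences between populations was not tested.

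For depth a direct measurement was added after seeing the data. Each condensate well of at least 3000 UMIs was set against the Fb wells of its plate whose totals lay between 4/5 and 5/4 of its own. So matched, DC0 wells stood 0.915 points above Fb (SD 1.5, above in 6 of 7 libraries and in 12 of 19 wells), less than their spread between libraries. DC2 wells differed from Fb by -2.84 points (SD 1.07, below in 6 of 6 libraries and in 19 of 22 wells). DC1 wells differed by -0.139 points (SD 1.58, below in 5 of 7 libraries), also less than their spread.

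Library 8 allows the same look at DC0 and DC2 side by side. Among wells of 6000 to 12000 UMIs the median share was 14.6% in 25 DC0 wells and 9.74% in 23 DC2 wells. Between 12000 and 24000 UMIs it was 14.6% in 60 and 11.3% in 25 wells, and from 24000 UMIs upward 13.5% in 7 and 8.68% in 16 wells. Below 3000 UMIs the shares were 6.62% in 30 and 6.19% in 57 wells, so the shallow wells had low shares under both names. The gap between DC0 and DC2 was thus present in each of the 3 deeper ranges of this plate and small in the shallowest.

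**Figure D2:**
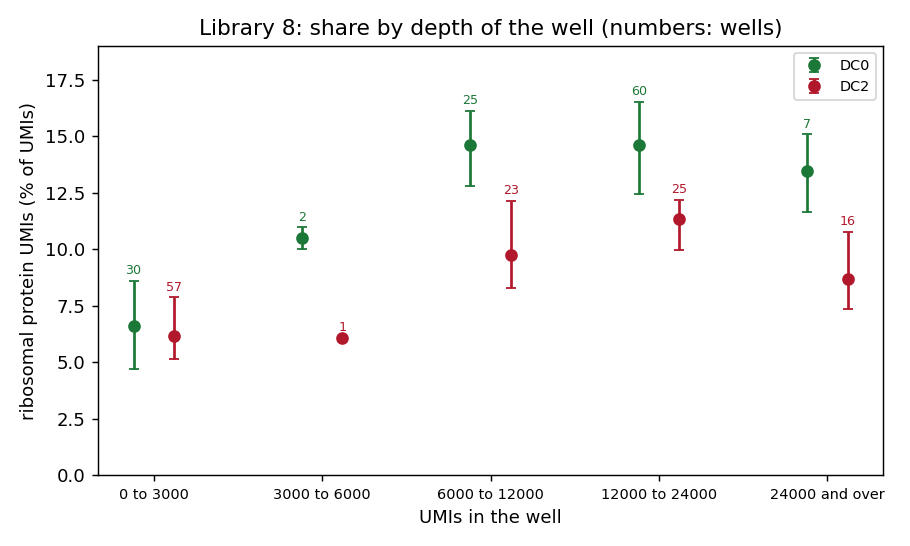
Percent of UMIs from the members in wells of library 8 (vertical axis, median and quartiles) by the UMIs in the well (horizontal axis, ranges), DC0 green and DC2 red, with the number of wells above each bar. From 6000 UMIs upward the DC0 medians lie between 13.5% and 14.6% and the DC2 medians between 8.68% and 11.3%.

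For single genes, the wells of each name on a plate were summed and compared by edgeR's quasi-likelihood test, with the plate as a blocking term. The p-values were adjusted by Benjamini-Hochberg over all genes tested and called at 0.05. Fold changes are log2 with their standard error (SE). The first comparison set all condensate wells of libraries 1 to 6 against their Fb wells, and 79 of the 86 members had enough UMIs to be tested. Of these, 1 rose and 5 fell, while 10.4% of all tested genes rose and 13.2% fell. The calls are 1.27% and 6.33% of the members tested. The median member stood at -0.06 and the median gene at -0.03. Without library 1 there were 2 rises and 8 falls, without library 4 there were 0 and 3, and without library 5 the falls were 2. The rises were 2 without library 2 and 0 without library 3 or 6. Among all tested genes 999 rose and 1229 fell without library 1, 865 and 1089 without library 4, and 1180 fell without library 5. Genes rising were 966 without library 2, 797 without library 3 and 775 without library 6. Those fits tested 9507 to 9960 genes.

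The gene with the largest fall was Rps2, whose protein lines the entry to the messenger RNA channel of the small subunit. Condensate sums gave 1144 to 1806 CPM (mean 1479, SD 227, n = 6) and Fb sums 1909 to 2282 CPM (mean 2081, SD 156), without overlap. Its fold change was -0.58 (SE 0.107, edgeR adjusted p = 4.2e-05), lower in 6 of 6 libraries. Rpsa, the small subunit protein also known as the laminin receptor precursor, fell by 0.49 (SE 0.104, edgeR adjusted p = 0.000332). Its sums ran from 1855 to 3217 CPM in condensate and from 3006 to 3903 CPM in Fb, so the groups overlapped although every library went down. Rplp1, a protein of the acidic stalk that recruits elongation factors, fell by 0.34 (edgeR adjusted p = 0.0114), and Rps27a, made as a fusion with ubiquitin, by 0.31 (edgeR adjusted p = 0.0324). Both fell in 6 of 6 libraries and overlapped between groups. Rplp1 was not called without library 4 or 5 (-0.32 and -0.31), nor Rps27a without library 2, 3 or 5 (-0.23, -0.34 and -0.29). Rpl41, which encodes a very short protein, was called at -0.33 (edgeR adjusted p = 0.0132) with 5 of 6 libraries lower.

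Rps9, whose protein binds early in small subunit assembly, was the member that rose. Fb sums held 1886 to 2172 CPM and condensate sums 2304 to 2874 CPM (mean 2616), again without overlap. The fold change was 0.30 (SE 0.0995, edgeR adjusted p = 0.0253), higher in 6 of 6 libraries. Without library 3, 4 or 6 it was not called, at 0.27, 0.31 and 0.26. In all, 9 of 79 members (11.4%) were higher in each of the 6 libraries and another 9 lower in each, against 10.5% and 12.6% of all tested genes, so both counts are near the background. The 8 besides Rps9 that were higher did not pass. The nearest to the threshold was Rps7, picked out after its value was seen, at 0.27 (edgeR adjusted p = 0.0531).

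The condensate names were then compared in a model with all 4 populations in libraries 1 to 8, in which 73 members could be tested. DC0 against Fb asks what separates the earliest condensate name from fibroblasts. A single member rose, Rps9, and 0 fell, while 11.7% of tested genes rose and 14.8% fell. At an unadjusted p under 0.05 there were 7 of 73 members and 747 of 2069 genes. DESeq2 called 8 members higher and 2 lower, and 281 and 319 of the 2069 genes. The median member stood at 0.10, with 48 of 73 above 0, against a median of -0.02 for all tested genes. Rps9 had a lowest, median and highest library of 1886, 1961 and 2172 CPM in Fb and 2310, 2986 and 3392 CPM in DC0. The groups did not overlap, and the fold change was 0.47 (SE 0.141, edgeR adjusted p = 0.0114). On wells thinned to 3000 UMIs it was 0.08 and not called. In all, 16 members (21.9%) were higher in DC0 in 7 of 7 libraries and 0 lower in all 7, against 8.07% and 9.91% of all tested genes. The 15 besides Rps9 did not pass. Among them were Rpl7 at 0.35 (edgeR adjusted p = 0.0677) and Rps4x at 0.32 (edgeR adjusted p = 0.12). Rps2 was lower in 6 of 7 libraries at -0.34, without a call (edgeR adjusted p = 0.113).

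DC1 against DC0 gave no call among 73 members with edgeR, where 0.967% of tested genes rose and 0.193% fell. At an unadjusted p under 0.05 there were 4 of 73 members and 202 of 2069 genes. DESeq2 called 1 member lower, and 6 of the 2069 genes. With edgeR the median member stood at -0.11, with 61 of 73 below 0. The largest shift belonged to Rps27l, at -0.46 (SE 0.288, edgeR adjusted p = 0.645). With SEs near 0.164 for the median member, a shift of the size of the median could not be told from the spread left between plates.

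DC2 against DC1 gave 8 falls and 0 rises among 73 members, where 1.3% of tested genes fell and 1.16% rose. All 73 fold changes were below 0, with a median of -0.38 against -0.06 over all tested genes, of which 55.1% were below 0. Rpl28, a large subunit protein, went from 950, 1459 and 1731 CPM (lowest, median and highest of 7 libraries) in DC1 to 701, 846 and 1118 CPM in DC2 (8 libraries). The fall was 0.77 (fold change -0.77, SE 0.158, edgeR adjusted p = 0.00492), seen in 7 of 7 libraries although the ranges overlapped. Rpl38, whose loss in mice changes the identity of vertebrae, gave -0.74 (edgeR adjusted p = 0.0341, lower in 6 of 7). Rplp1 gave -0.73 (edgeR adjusted p = 0.0146) and Rps25, a protein of the small subunit head, -0.72 (edgeR adjusted p = 0.018), both lower in 7 of 7. The remaining calls were Rpl12 at the base of the stalk, Rps12, Rpl35 and Rpsa. The count was 10 without library 1, but 4 without library 3 or 6, 3 without library 4, 5 or 8, and 2 without library 7. Genes lower were 26 of 2290 without library 1, 9 of 1895 without library 3 and 12 of 2093 without library 6. They were 13 of 2277 without library 4, 16 of 1688 without library 5 and 10 of 1814 without library 8. Without library 7 they were 25 of 2096. Rpl38 lost its call without any 1 of libraries 2, 3, 4, 5, 7 and 8 (-0.82 to -0.66), and Rps25 without library 7 (-0.63). With at least 5 wells per sum no member was called, and of all 5214 tested genes 5 fell and 1 rose.

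**Figure D3:**
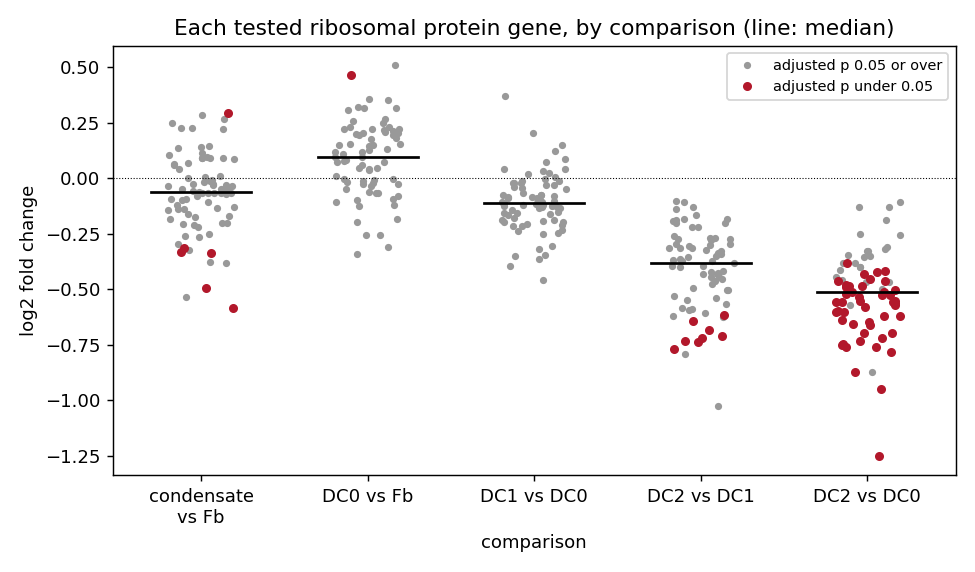
Log2 fold change (vertical axis) of each tested member, a point per gene, in the 5 comparisons (horizontal axis), red where the adjusted p is under 0.05, a black line at the median. The medians run from 0.10 for DC0 against Fb to -0.51 for DC2 against DC0, where all 73 points lie below 0.

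DC2 against DC0 gave the most calls of the 5 comparisons. Of 73 tested, 47 fell and 0 rose, where 9.18% of tested genes fell and 8.41% rose. All 73 fold changes were below 0, from -1.25 to -0.11 with a median of -0.51, while 52.7% of all tested genes were below 0 and their median was -0.04. In 22 members the level was lower in each of 8 libraries, against 3.04% of all tested genes. Large subunit genes gave 25 calls of 43 tested with a median of -0.48, and small subunit genes 22 of 30 with a median of -0.55. The same 73 genes had their highest mean level in DC0 for 63, in DC1 for 7 and in Fb for 3. Their lowest was in DC2 for 59 and in Fb for 12. The DC0 and DC2 means include library 8, where the DC0 share was highest (14.2%), while the Fb and DC1 means stop at library 7. These ranks therefore mix plates, and no such ranks over all tested genes are given here. The count fell to 27 without library 5 and to 30 without library 8, and stayed between 39 and 49 without any other library. With wells thinned to 3000 UMIs it was 9 of 68 tested, with a median of -0.29. Of all 283 genes tested there 22 fell, and the median gene stood at -0.06.

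Libraries 3, 5, 6 and 7 carry the same flow cell code in their labels. Within those 4 libraries the 72 tested members had a median fold change of -0.47 and 11 calls, where 65 of all 2537 tested genes fell. Within the other 4 the 72 tested members had a median of -0.55 and 1 call, where 17 of all 1213 tested genes fell. The median gene stood at -0.03 in the first set and -0.05 in the second. The share of DC2 minus that of DC0 was -2.30 percentage points in the first set and -4.53 in the second.

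**Figure D4:**
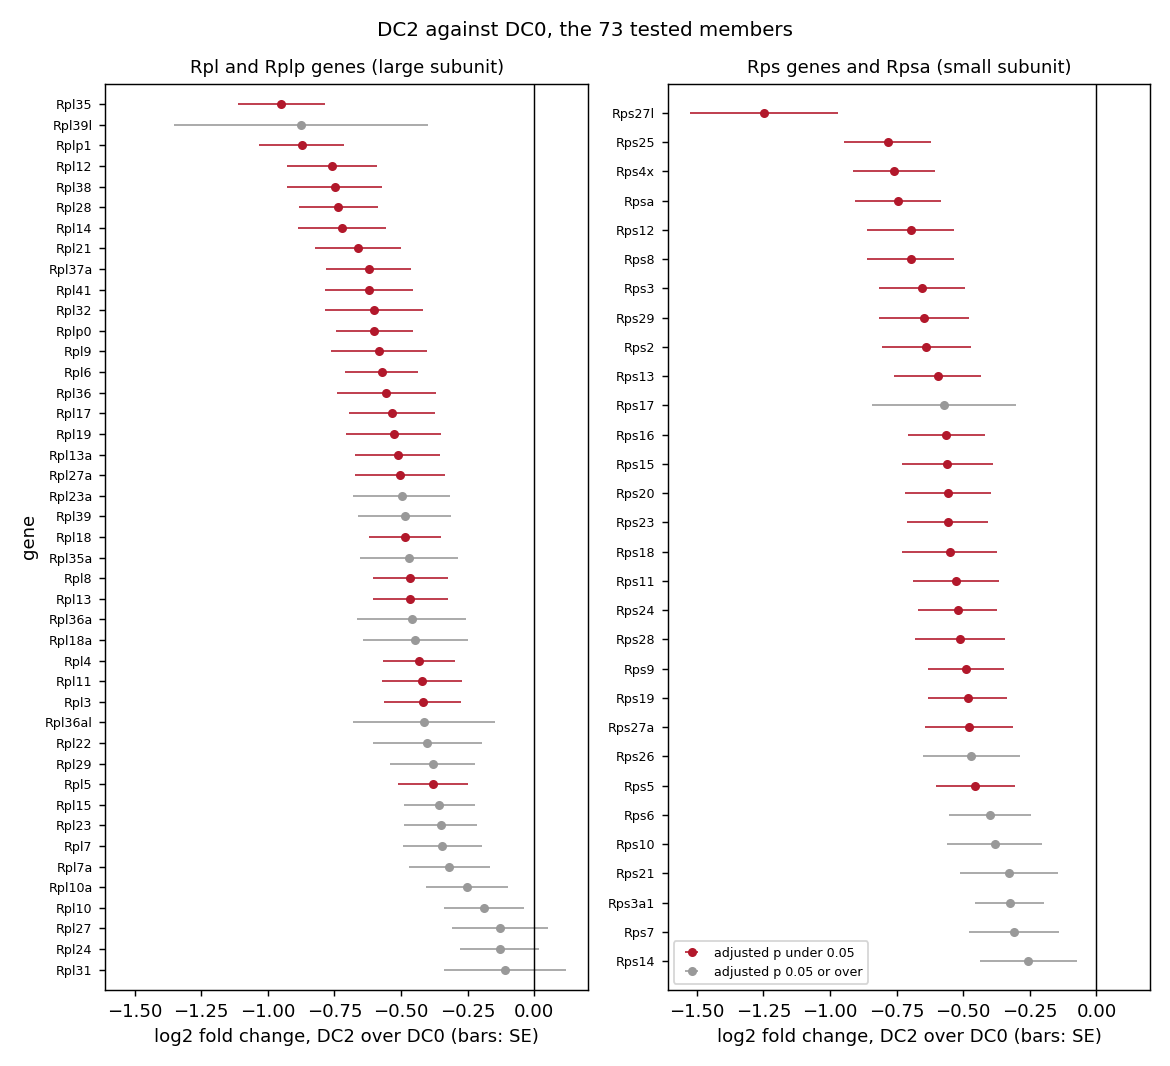
Log2 fold change of DC2 over DC0 (horizontal axis, bars are SE) for the 73 tested members (vertical axis), large subunit genes on the left and small subunit genes on the right, red where the adjusted p is under 0.05. The estimates run without a break from Rps27l at -1.25 to Rpl31 at -0.11, and none lies above 0.

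Rps27l fell the most. Its product is a close relative of Rps27 and its gene is a known target of p53. DC0 sums held 120, 290 and 365 CPM (lowest, median, highest) and DC2 sums 0, 64.1 and 209 CPM. The ranges overlapped, yet DC2 was lower in 8 of 8 libraries, with 0 UMIs in libraries 1 and 6, whose DC2 sums hold only 2855 and 10736 UMIs. The fold change was -1.25 (SE 0.278, edgeR adjusted p = 0.00163). In library 8 alone, 460 UMIs in DC0 and 182 in DC2 gave a ratio of 0.429 (95% interval 0.360 to 0.511, counting error only). Of 4 other p53 targets tested, Cdkn1a, the cell cycle inhibitor p21, fell by 1.27 (edgeR adjusted p = 0.0291), 0 rose and the median was 0.07.

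Rpl35, at the exit of the tunnel through which the new protein chain leaves the large subunit, came next among the calls. Its DC0 sums held 763, 1160 and 1995 CPM and its DC2 sums 0, 572 and 1005 CPM, with library 4 highest under both names. The fold change was -0.95 (SE 0.163, edgeR adjusted p = 6.79e-05), lower in 8 of 8 libraries. Library 9, the plate of DC1 wells outside the model, stood between them at 786 CPM.

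The stalk proteins moved with them. Rplp1 went from 1709, 2623 and 3329 CPM in DC0 to 350, 1356 and 1843 CPM in DC2. This was lower in 8 of 8 libraries, at -0.87 (SE 0.161, edgeR adjusted p = 0.000167), and the ranges overlapped only through the lowest DC0 sum, that of library 5, and the 2 highest DC2 sums, those of libraries 4 and 8. Rplp0, the stalk's anchor and a common reference gene, fell by 0.60 (edgeR adjusted p = 0.00351), from a mean of 2620 CPM (2158 to 2946) to 1814 CPM (1051 to 2608). Rpl12, at the base of the stalk, fell by 0.76 (edgeR adjusted p = 0.00176). Rplp2, the partner of Rplp1 in the stalk, had too few UMIs for the test, at 21.0 CPM in DC0 and 13.0 CPM in DC2.

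In the small subunit Rps25 fell by 0.78 (SE 0.162, edgeR adjusted p = 0.000681). Its DC0 sums held 664, 1025 and 1480 CPM and its DC2 sums 373, 634 and 801 CPM, lower in 8 of 8 libraries, and the ranges overlapped only through the DC0 sum of library 5. Rps4x, encoded on the X chromosome, fell by 0.76 (edgeR adjusted p = 0.000604), and Rpsa by 0.75 (edgeR adjusted p = 0.00136). Rps9, the gene that stood higher in DC0 than in Fb, fell by 0.49 (edgeR adjusted p = 0.0149) to a mean of 2186 CPM (SD 456) in DC2, near the 1984 CPM (SD 99.4) of Fb.

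**Figure D5:**
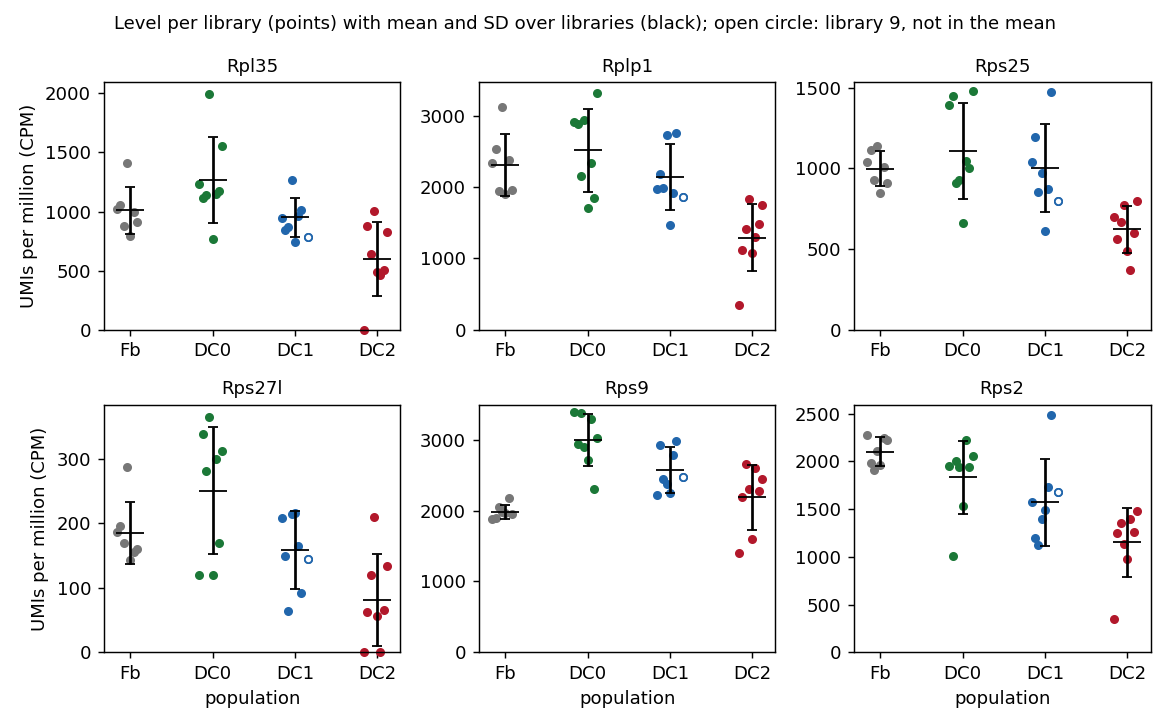
CPM per library (vertical axis) by population (horizontal axis) for 6 members, points for libraries, black for the mean and SD, an open circle for library 9. Rpl35, Rplp1, Rps25 and Rps27l have their lowest mean in DC2, Rps9 has its highest in DC0 without overlap with Fb, and Rps2 has its highest mean in Fb.

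Members known from mouse mutants or from the p53 response were among both the called and the uncalled. Rps19 and Rps20, the dark skin genes, gave -0.48 (edgeR adjusted p = 0.0193, lower in 6 of 8) and -0.56 (edgeR adjusted p = 0.0138, lower in 8 of 8). Rpl38 gave -0.75 (edgeR adjusted p = 0.00323, lower in 7 of 8). Rpl5 and Rpl11, which can bind Mdm2 together and so release p53, gave -0.38 (edgeR adjusted p = 0.043) and -0.42 (edgeR adjusted p = 0.0486). Rps6, the substrate of S6 kinase, gave -0.40 without a call (edgeR adjusted p = 0.0696). Rpl24, mutated in belly spot and tail mice, gave -0.13 (SE 0.148, edgeR adjusted p = 0.608), at 1089 CPM (SD 278) in DC0 and 1085 CPM (SD 363) in DC2.

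At the other end of the ranking stood Rpl31 (-0.11, SE 0.229), Rpl24, Rpl27 (-0.13, SE 0.180) and Rpl10 (-0.19, SE 0.151), none of them called. Rpl10, one of the last proteins to join the large subunit, held 1879, 2912 and 3352 CPM in DC0 and 1865, 2725 and 3152 CPM in DC2. Set beside Rpl35, the gap in fold change is wider than the SE of either, but a difference between 2 members was not tested. The fold changes were also read by the TOP pattern at the annotated start. The 10 tested members with it had a median of -0.51 and 5 calls. The 44 with an annotated start but without it had a median of -0.51 and 29 calls. An annotated start can miss the true one, so the 44 may carry the motif, and this split cannot show its part.

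Library 8 offers a count with no small sums, 1475360 UMIs in DC0 against 1359197 in DC2. In it 84 of 86 members had a lower CPM in DC2, 0 a higher, and 2 (Rpl26 and Rpl3l) had no UMI in either. The 95% interval of the ratio lay below 1 for 75. That interval covers counting error only, and no count of all genes by it is given here. The median ratio was 0.670. Among the 5206 genes with at least 100 UMIs there, 44.5% were below 1 and the median ratio was 1.06, whereas 77 of 77 members at that depth were below 1. Rpl41 had the ratio 0.498 (0.476 to 0.520), Rplp1 0.528 (0.503 to 0.555) and Rpl10 0.916 (0.877 to 0.957). This is a comparison of the wells of 1 plate and not of replicates.

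Levels differed widely within the family, although each intact ribosome carries its proteins in fixed numbers. Each UMI stands for an RNA molecule whatever its length, so CPM was compared between genes without dividing by length. Rpsa was highest in Fb at 3411 CPM (SD 313, n = 7), followed by Rpl4 at 2895 (2348 to 3271), Rpl10 at 2628 (2255 to 2969), Rpl13 at 2578 (SD 90.4) and Rpl41 at 2577 (SD 724). Rpl4 to Rpl41 overlapped across libraries, and differences between these genes within a library were not tested. These 5 held 14.4% of the members' UMIs. The median member stood at 1088 CPM, 52 stood above 1000 CPM and 13 below 100 CPM.

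The 13 low ones are partly tissue-restricted paralogs. Rpl3l, known from striated muscle, had 4 UMIs in all Fb wells, and Rpl10l, known from testis, had 33. Their partners Rpl3 and Rpl10 stood at 1360 and 2628 CPM, and the coding sequences are 73.2% and 84.7% identical. Rpl22l1 stood at 4.50 CPM beside 574 CPM of Rpl22 (68.2% identical), and Rps4y2, now named Rps4l, at 50.9 CPM beside 1774 CPM of Rps4x. Rpl39l, another gene known from testis, stood at 59.9 CPM (SD 11.1) in Fb, 115 (SD 68.5) in DC0, 128 (SD 108) in DC1 and 37.4 (SD 41.6) in DC2. Its fold change from DC0 to DC2, -0.87, was not called (edgeR adjusted p = 0.213). Rpl36a and Rpl36al, 87.7% identical, were both well expressed in Fb, at 527 and 287 CPM.

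Other low ones are core subunits of every ribosome. Rps27, whose sequence is printed above beside that of Rps27l, stood at 1.31 CPM in Fb against 185 CPM (SD 48.3) for Rps27l, and had 38 UMIs in all Fb wells and 2 in all DC0 wells. Rpl26 had 3 UMIs in Fb, Rpl30 61 and Rpl34 74. Rpl37, Rplp2 and Rps15a stood at 12.6, 18.9 and 23.0 CPM. How reads that match pseudogene copies were counted is not given in the sources used here, and the table holds 6 rows of member pseudogenes by symbol. The levels of these genes, and the splits within the closest pairs, are therefore uncertain.

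The other genes of protein synthesis were read from lists of known function, beside the background of 13.2% of genes lower and 10.4% higher in condensate against Fb and 9.18% and 8.41% in DC2 against DC0. Of 59 ribosome biogenesis genes, 58 were tested in condensate against Fb, where 10 fell and 1 rose (median -0.26). Tsr1, needed to mature the small subunit, fell by 1.66 (edgeR adjusted p = 4.79e-05) and Gnl3, the nucleolar protein nucleostemin, had a fold change of -1.29 (edgeR adjusted p = 5.18e-06). In DC2 against DC0 only 11 had enough UMIs, and 3 of them fell: Fbl, the ribosomal RNA methylase, at -1.58, Nop58 at -1.14 and Npm1 at -0.56 (edgeR adjusted p = 0.00426, 0.00935 and 0.0175).

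Of 32 initiation factors 3 fell and 2 rose in condensate against Fb (median -0.13), counts no higher than the background. The calls included Eif5a at -0.81 and Eif4g1 at -0.73, and Eif3h at 0.53 (edgeR adjusted p = 1.95e-06, 0.00021 and 0.00359). In DC2 against DC0, 4 of 29 fell and 0 rose (median -0.28), led by Eif2s1 at -1.0 and Eif4a1 at -0.80 (edgeR adjusted p = 0.0103 and 0.0052). Of the 8 genes on the elongation list 3 rose and 2 fell in condensate against Fb (median 0.01), among them Eef2k at 1.43, Eef2 at 0.41 and Eef1d at -0.62 (edgeR adjusted p = 9.94e-05, 0.00183 and 0.00541). Of 6 tested in DC2 against DC0, 2 fell and 0 rose, Eef1g at -0.60 and Tpt1 at -0.44 (edgeR adjusted p = 0.0194 and 0.02), both with messages of the TOP class. Tpt1 is on the list but is not itself an elongation factor. Of 23 growth regulators 2 rose and 2 fell in condensate against Fb (median -0.09). Eif4ebp1, an inhibitor of cap-dependent initiation downstream of mTOR, fell, at -1.13 (edgeR adjusted p = 4.79e-05), as did the S6 kinase gene Rps6kb1, at -0.58 (edgeR adjusted p = 0.0438). Maf1, a repressor of RNA polymerase III, rose, at 1.03 (edgeR adjusted p = 0.000552). Mxi1, an antagonist of Myc, rose by 2.32 (edgeR adjusted p = 3.62e-12) and rose again from DC0 to DC2 by 2.19 (edgeR adjusted p = 5.84e-07). Of the 76 mitochondrial ribosomal protein genes, a list added after the data were seen, 3 rose and 1 fell in condensate against Fb (median -0.13), and only 3 could be tested between stages. The genes of these lists named for DC2 against DC0 were chosen after their values were seen, as the calls of their lists.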

How the data were processed

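Single-cell libraries were made by SORT-seq and sequenced on a NextSeq500, per the labels' protocols. The submitters' processing notes name BWA 0.6.2-r126, TopHat2 2.0.3, Cufflinks 2.1.1, Bowtie2 and mm10 without roles. Each deposited value is an expected count, the UMIs per gene and well adjusted for collisions in a space of 4096 UMIs: 0 of 7480233 values above 0 differed from that formula by more than 0.005. They were rounded, which changed 13.5% of them, and the rounded total was 101% of the recovered UMIs. Spike-in rows (86) stayed out of library sizes. Whole counts had been assumed in the design.

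Sums were made per library and population, with at least 10 wells per sum for condensate against Fb and at least 2 wells for the stages, where a low minimum was needed. Tests used edgeR 4.0.16 (TMM, filterByExpr, glmQLFit, glmQLFTest) with the library as a block. The pairing comes from the plate. Alternatives were DESeq2 1.42.0, other scalings, no filter, thinning to 3000 UMIs per well, recovered whole UMIs, larger sums, the flow cell run, and leaving out each library. The scripts were tested on simulated data. Other versions were limma 3.58.1, R 4.3.3, scipy 1.17.1, pandas 2.3.3, numpy 2.4.6, Biopython 1.88, matplotlib 3.10.9 and Python 3.11.15.

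Named genes were the called members with the largest changes (up to 8 per direction for condensate against Fb with every library going the same way, up to 4 for each stage comparison), the 5 highest in Fb, the paralog pairs, 9 known genes, and from each other list up to 4 called genes. Any other is said to be picked afterwards or listed among its comparison's calls. Members and lists were chosen with earlier results of these data known. Coordinates and coding sequences come from GENCODE M21 and start sites from RefSeq, both on GRCm38. Depth sets the precision: DC sums of 2 to 8 wells make most stage estimates rest on few cells. One list of other genes is not reported here.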

Additional observations from a re-analysis of the deposited data

Results flagged for a closer look

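The wells named for spike-ins, 16 in each library, enter no comparison and held 6399 member UMIs of 72455 UMIs, a share of 8.83% (7.31% to 10.2% over the 9 libraries), above the 3 counts that a count of 0 allows. Their median well held 431 UMIs. In 22 groups of at least 4 libraries tested, 0 had a lone high or low library by Dixon's test.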

How the results depend on the processing

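For condensate against Fb (1 member higher, 5 lower) the counts of higher and lower members were 4 and 2 with totals only, 0 and 17 with no filter, 2 and 10 with at least 5 wells per sum, and 0 and 2 in the libraries outside the shared flow cell. With no filter 86 members were tested, and 79 in the other settings named. Over all tested genes the counts were, in the same order, 1227 and 1080 of 9640, 924 and 1698 of 18201, 1134 and 1469 of 9602, and 373 and 662 of 9516. Members lower numbered 9 with RLE scaling, where 1347 of 9640 genes were lower. Members higher numbered 2 when scaled on other genes and 2 with DESeq2, and 0 on thinned wells and in the shared flow cell. Genes higher were, in the same order, 1014 and 880 of 9640, 248 of 4851 and 838 of 11044. Leaving out 1 library gave 0 to 2 members higher and 2 to 8 lower. Over all tested genes it gave 775 to 999 higher and 1070 to 1229 lower. The median of members turned to 0.0325 with totals only.

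For DC0 against Fb (1 higher, 0 lower) members higher numbered 2 with RLE scaling, 6 with totals only, 0 with no filter, 8 with DESeq2, 2 on recovered whole UMIs, 0 with at least 5 wells, 0 within each set of flow cells, and 1 to 3 without 1 library. Members lower numbered 2 with no filter, 2 with DESeq2 and 1 on thinned wells, where 1257 of 18809, 319 of 2069 and 38 of 283 genes were lower. With no filter the median of members turned to -0.28, where that of all genes was -0.52. DESeq2 called 1 member lower in DC1 against DC0, and 6 of 2069 genes. For DC2 against DC1 (8 lower) the count was 5 with RLE scaling, 1 on thinned wells, 0 with at least 5 wells, 0 within each set of flow cells, and 2 to 10 without 1 library. Genes lower were 16 of 2069 with RLE scaling, 5 of 283 on thinned wells and 5 of 5214 with at least 5 wells. Within the shared flow cell they were 5 of 2537, in the other libraries 0 of 1213, and without 1 library 9 to 31. For DC2 against DC0 (47 lower) it was 29 with totals only, 9 on thinned wells, 11 in the shared flow cell, 1 in the other libraries, and 27 to 49 without 1 library. All 47 stayed called when scaled on other genes, 45 with DESeq2 and 47 on recovered UMIs.

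Without the replicate block, that is without pairing populations by plate, the counts of members were 0 higher and 3 lower for condensate against Fb, 2 higher for DC0 against Fb, 3 lower for DC2 against DC1 and 33 lower for DC2 against DC0. Over all tested genes they were, in the same order, 1138 and 1285 of 9640, 287 of 2069, 27 of 2069 and 184 of 2069.

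The share of DC1 minus Fb turned to -0.139 points at matched depth. The log2 ratio of members per spike-in UMI, DC1 to DC0, was 0.0713 as a median over wells and -0.235 to 0.00213 without 1 library, and that of DC0 to Fb -0.227 to 0.0124. The share differences of DC0 and DC2 from Fb, and of DC2 from DC0, kept their sign under every setting run. The cause of these changes was not tested, beyond the fewer genes, libraries or UMIs that a setting leaves. Depth limits the stage comparisons: condensate sums of libraries 1 to 7 hold few wells.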
